A study of Homo sapiens with 6 samples.

Results

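The genes of the respiratory chain and the ATP synthase were examined in HEK-293T, a cell line from human embryonic kidney, after transduction with RUNX1. The members were all named probes whose gene symbol begins with NDUF, UQCR or ATP5, or with COX followed by a digit from 4 to 8, together with SDHA, SDHC, SDHD, CYC1 and CYCS. They came to 95 genes with 131 probes, of 20046 named genes and 47231 probes on the array. By complex there were 36 genes of complex I, 3 of complex II, 9 of complex III, 17 of complex IV and 18 of complex V, the ATP synthase, with CYCS, 8 assembly factors of complex I, 2 pseudogene copies and 1 antisense RNA. SDHB, UQCRFS1, NDUFA4, NDUFA4L2 and the genes of mitochondrial DNA were not analysed here.

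RUNX1 is a transcription factor of blood development, and the study turned to these arrays to ask whether it raises the transcripts of enzymes that add or remove DNA methylation. RUNX1-overexpressing cells filled 3 arrays and MCS-transduced cells, which received the control lentivirus, filled 3, and a legend of the study speaks of biological triplicates. Both groups received lentivirus at 10 multiplicity of infection and 1 µg/ml puromycin, and RNA was taken 7 days after transduction and measured on HT-12 v4 bead arrays of Illumina. Each array measures the RNA of a whole culture, in which fewer cells with a transcript and less transcript per cell cannot be told apart.

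Oxidative phosphorylation makes most of the ATP of resting cells. Complex I takes electrons from NADH and complex II takes them from succinate, complex III passes them by way of cytochrome c to complex IV, which reduces oxygen, and the protons pumped on the way drive the rotor of complex V. The subunits are encoded partly in mitochondrial DNA and mostly in the nucleus, where NRF1 and the ETS factor GABP are known regulators of many of these genes.

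None of the 3 RUNX1 probes was above background on a RUNX1 array, and 1 was above it on 1 MCS array, so the arrays did not serve as a check of the overexpression or of the labels, on which every difference between RUNX1 and MCS rests. The leading axis of variation held 66.7% of the variance and crossed the labels, with RUNX1 replicates 1 and 2 and MCS replicate 1 on one side, so that the labels of the arrays remain in doubt. The share of probes above background was 38.3 to 40.9% on the 6 arrays. Of 10 genes known from HEK-293T cells, 9 had a probe and 7 were above background on all 6 arrays (VIM, KRT8, KRT18, NEFM, NEFL, EYA1 and TUBB2B), whereas PAX2 was on none. Of 10 blood markers 7 were above background on no array, PTPRC and GATA1 among them, and CD14 was on all 6, while of 7 muscle markers with a probe 4 were on none, ACTA1 and MYH7 among them, and TNNI3 was on all 6.

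Respiratory chain transcripts were widely present. A probe was called detected where the deposited detection p-value, which sets its signal against the negative control probes of the same array, was under 0.05. Of the 131 member probes, 111 (84.7%) were detected on all 6 arrays, against 32.5% of all probes, and 18 were detected on none. Every gene of complexes II, III and V was detected on all 6 arrays, as were 32 of 36 in complex I and 11 of 17 in complex IV. NDUFA5, NDUFC2 and NDUFS6, accessory subunits of complex I, each had a probe that was detected on no array, with detection p-values of at least 0.14, 0.073 and 0.84.

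In complex IV the detected genes were the common isoforms. Several subunits of this complex have a second gene for a tissue with its own needs. The common isoforms COX4I1, COX6A1, COX6B1, COX7A2, COX7B and COX8A were detected on all 6 arrays, as was COX7A2L, a relative of subunit 7A that takes part in supercomplexes. The detection p-value was never below 0.77 for COX4I2, the lung isoform, nor below 0.84 for COX7A1 and 0.27 for COX6A2, the heart and muscle isoforms. For the testis isoforms the lowest detection p-value was 0.72 for COX7B2, 0.80 for COX8C and 0.078 for the brighter of both COX6B2 probes. These 6 genes were detected in neither group, and a signal at background does not show that the transcript is absent.

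**Figure D1:**
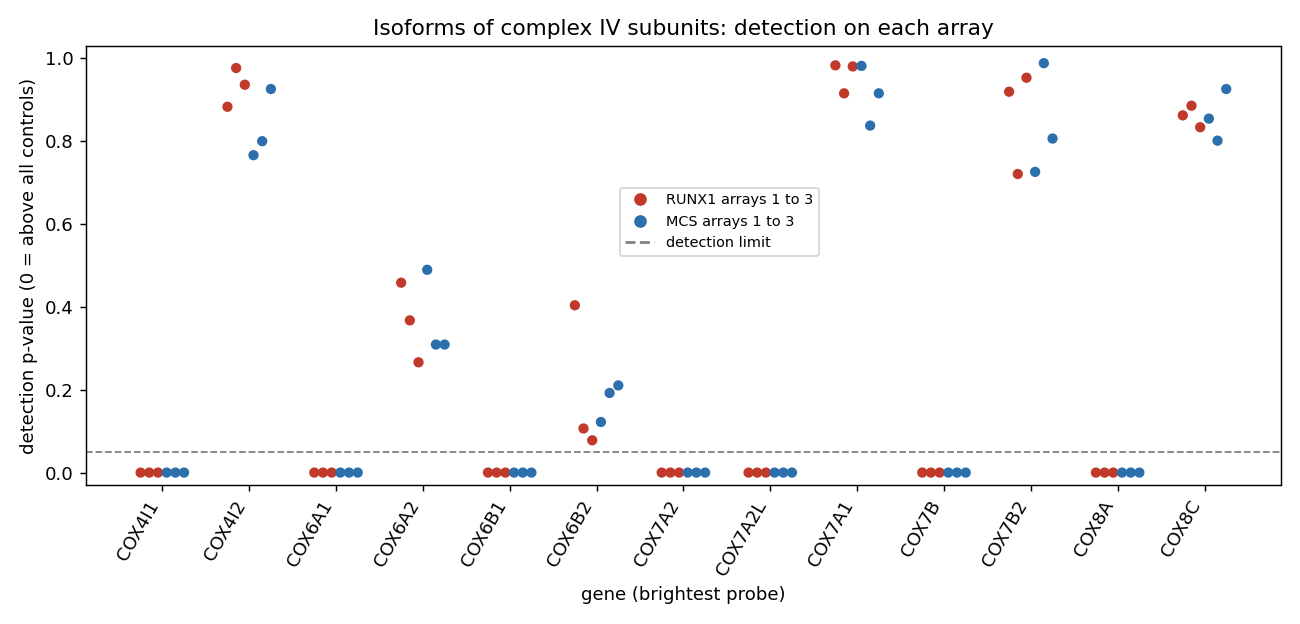
Detection p-value (vertical axis, 0 means above all negative controls) of the brightest probe of 13 genes for isoforms of complex IV subunits, with the 3 RUNX1 arrays as red points and the 3 MCS arrays as blue points and the limit of 0.05 dashed. The 7 common genes lie at 0 on all 6 arrays and the 6 tissue-restricted ones lie above the limit on all 6, in both groups.

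The plot of detection by isoform shows that no isoform was detected with one transduction and undetected with the other. The promoter windows of the members were then read, because NRF1 and ETS motifs are known in many of these genes and because RUNX1 has a known motif of its own. RefSeq sequences of GRCh38.p14 were matched by the Entrez gene number of the platform annotation for 77 of the 95 members. The 250 bases before the start of each gene were searched on both strands. The NRF1 core, GCGCA and GCGC with any base between them, was in 14 of 77 windows (18.2%), against 5.53% of all 27305 promoters, and the ETS motif CCGGAAG was in 17 (22.1%), against 8.82%. The YY1 motif AAGATGGC was in 1 (1.30%), against 1.37%, and the RUNX motif TGTGGT was in 10 (13%), against 10.9%. A match is a description of the letters and not a bound site.

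A window is shown for each of the 5 complexes, with the motif in capitals as it reads on the strand of the gene. The windows are NDUFA9 (chr12:4649014-4649063, + strand), SDHA (chr5:218145-218319, + strand), UQCR11 (chr19:1605463-1605582, - strand), COX8A (chr11:63974560-63974619, + strand) and ATP5F1C (chr10:7788117-7788176, + strand). Capitals are NRF1 cores in NDUFA9, SDHA and ATP5F1C, an ETS motif in COX8A, and in UQCR11 a pair of ETS motifs followed by a pair of NRF1 cores.
NDUFA9: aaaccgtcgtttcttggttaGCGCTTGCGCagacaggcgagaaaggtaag
SDHA: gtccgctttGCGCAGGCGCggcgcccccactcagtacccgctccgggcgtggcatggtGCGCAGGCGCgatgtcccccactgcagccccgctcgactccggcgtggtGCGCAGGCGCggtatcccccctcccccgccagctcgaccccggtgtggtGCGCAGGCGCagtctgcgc
UQCR11: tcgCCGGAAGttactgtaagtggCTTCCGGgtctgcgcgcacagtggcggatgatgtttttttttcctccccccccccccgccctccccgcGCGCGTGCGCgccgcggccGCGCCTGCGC
COX8A: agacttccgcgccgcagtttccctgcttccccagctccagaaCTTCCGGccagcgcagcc
ATP5F1C: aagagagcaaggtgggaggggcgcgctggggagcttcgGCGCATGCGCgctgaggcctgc
SDHA, the flavoprotein that oxidizes succinate, held 4 NRF1 cores, which begin at -166, -117, -68 and -19 relative to the start.

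A further 3 windows belong to genes with results of their own. COX8C (chr14:93347122-93347181, + strand) is the testis isoform that was detected on no array, and its capitals are an NRF1 core. ATP5MK (chr10:103396606-103396665, - strand) had the largest positive difference of the members, and its capitals are a pair of ETS motifs, 1 on each strand, that overlap. NDUFV1 (chr11:67606756-67606805, + strand) was the only member whose groups did not overlap, and its capitals are the RUNX motif on the other strand.
COX8C: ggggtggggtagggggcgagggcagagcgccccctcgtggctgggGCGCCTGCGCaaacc
ATP5MK: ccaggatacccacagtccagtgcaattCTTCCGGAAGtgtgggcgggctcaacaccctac
NDUFV1: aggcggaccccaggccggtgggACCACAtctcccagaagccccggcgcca
An NRF1 core thus stood before COX8C, undetected here, as it did before ATP5F1C, which was detected on all 6 arrays. The RUNX motif was also before UQCR10 (RUNX1 minus MCS 0.12), NDUFA3 (0.04), UQCRH (0.02) and COX7A2L (0.01). It was likewise before ATP5F1A (-0.14), ATP5F1E (-0.12), NDUFS8 (-0.07), SDHA (-0.06, in lower case in its window) and ATP5MJ (-0.0050). In each of these genes the groups overlapped. The motif was thus not particular to NDUFV1, and whether it bears on any difference was not tested.

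For the comparison of RUNX1-overexpressing with MCS-transduced cells, signals were corrected for background, brought to equal quantiles and expressed as log2, so that a difference of 1 is a 2-fold change. The brightest probe was kept for each gene detected on at least 3 arrays, which left 85 members among 11129 genes. The test was limma's moderated test over all genes, with Benjamini-Hochberg adjustment.

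No respiratory chain or ATP synthase gene passed the test between RUNX1-overexpressing and MCS-transduced cells. Of the 85 members 0 had an adjusted p below 0.05 from limma, against 0% of all genes, and their lowest adjusted p was 1.00. At an unadjusted p under 0.05 the count was 0 of 85, against 2.26% of all genes (1.16% higher and 1.1% lower with RUNX1). Read probe by probe, 0 of 113 member probes passed the adjusted threshold, against 0% of all 18867 probes tested, and 0 passed the unadjusted one, against 2.92%. The groups did not overlap for 1 of 85 members, against 6.56% of all genes (3.81% higher and 2.75% lower with RUNX1).

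One alternative made calls. With each array weighted by its estimated quality, 897 of 11129 genes (8.06%) had an adjusted p below 0.05 from limma, and so did 2 members, ATP5MK with a difference of 0.54 (adjusted p = 0.048) and NDUFA2 with 0.38 (adjusted p = 0.049). The lowest weights were those of RUNX1 replicate 3, 0.28, and MCS replicate 1, 0.31, and with either array left out and no weights 0 members passed. MCS replicate 2 had the highest weight of all, and MCS replicate 3 had 0.78. RUNX1 replicate 2 had 2.46 and RUNX1 replicate 1 had 1.42. The weighted fit thus leaned most on replicate 2 of each group.

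The differences of the members were small in size. In 55 of 85 genes the difference was under 0.1 on the log2 scale in either direction, and in 8 it was at least 0.2. The 95% confidence interval lay within a 2-fold change in 84 of 85 members (98.8%, against 92.4% of all genes) and within a 1.5-fold change in 76 (89.4%, against 57.7%). The median standard error was 0.14 over the members and 0.17 over all genes. Member probes were detected on all 6 arrays more often than all probes (84.7% against 32.5%). The members were not set against genes of like signal. The sign was positive in 56 members (65.9%, against 55.4% of all genes) and negative in 29. The median difference was 0.034 against 0.021 over all genes, but after median scaling in place of quantile normalization 23 of 85 were positive. That scaling moved the median of all genes by -0.11, and the members' median was then -0.029 against -0.089 over all genes.

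**Figure D2:**
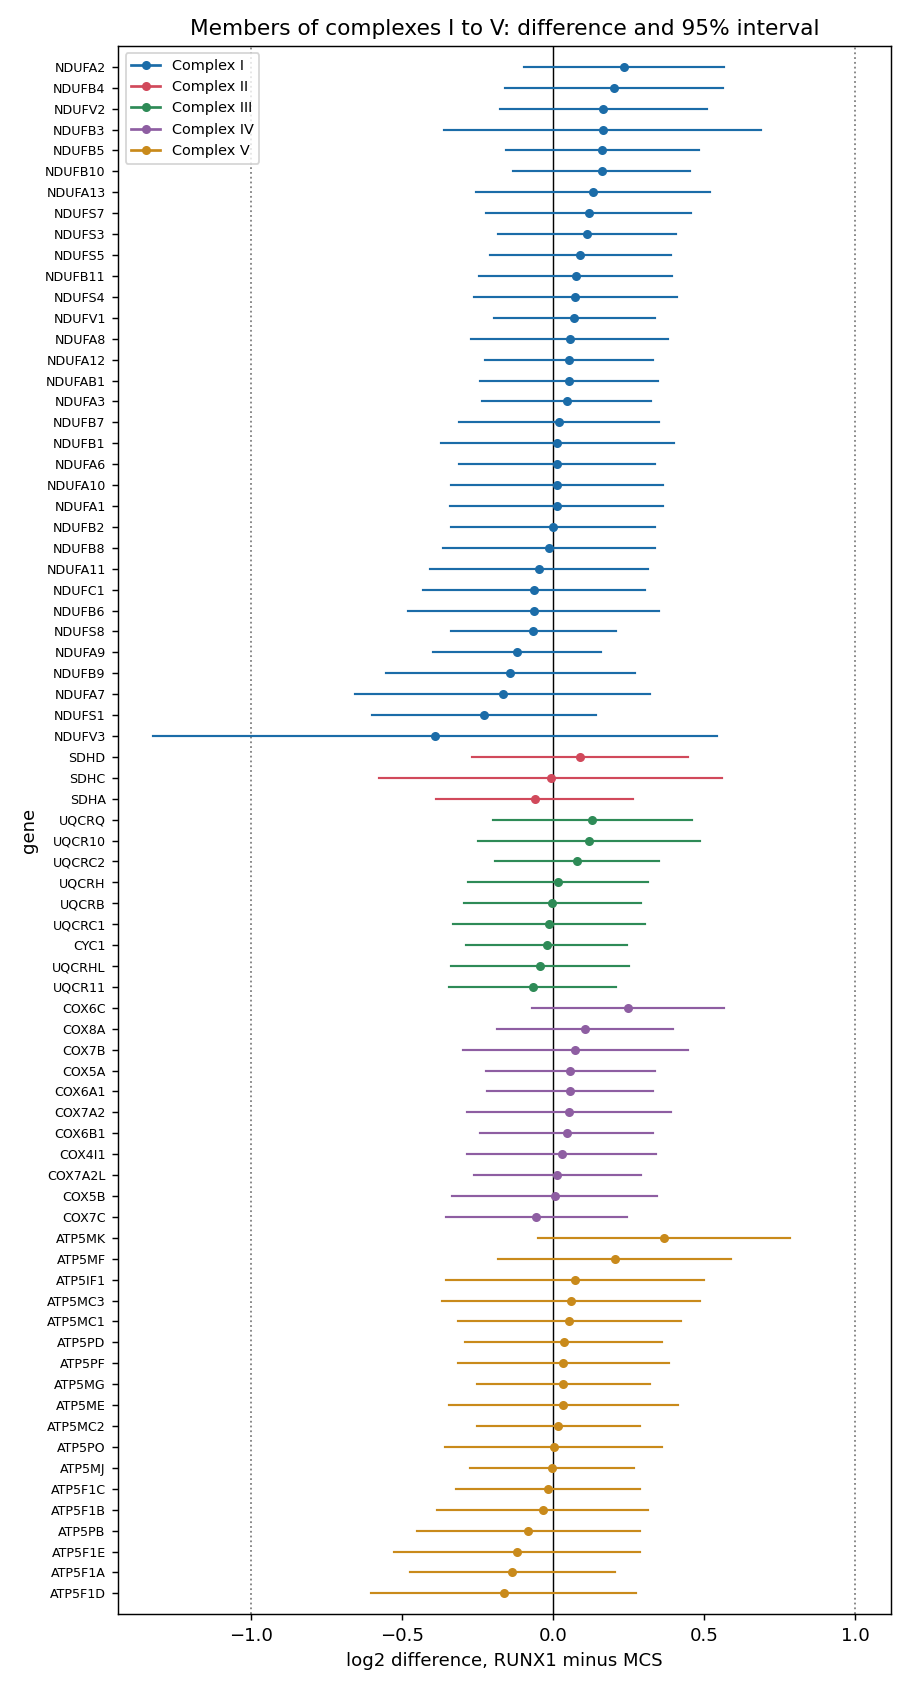
Log2 difference, RUNX1 minus MCS (horizontal axis), of the 74 tested genes of complexes I to V, with the 95% confidence interval from limma as a bar and the complex by colour. Every interval includes 0, and NDUFV3 alone reaches past the dotted line of a 2-fold change.

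The plot of differences by complex shows differences on both sides of 0 in each of the 5 complexes. Complex I, the entry point of electrons from NADH, had 33 tested genes, of which 22 had a positive and 11 a negative difference, with a median of 0.044. The core subunit NDUFV1, which binds NADH, had log2 values of 11.19, 11.14 and 11.21 on the RUNX1 arrays, against 11.08, 11.12 and 11.14 on the MCS arrays. Each RUNX1 array lay above each MCS array, by as little as 0.0014, and the difference was 0.07 ± 0.11 (SE, adjusted p = 1.00 from limma), or -0.02 after median scaling. Of the other core subunits with iron-sulfur clusters, NDUFV2 had a difference of 0.17, NDUFS7 of 0.12, NDUFS8 of -0.07 and NDUFS1, the largest of them, of -0.23. NDUFS3, a core subunit of the peripheral arm, had a difference of 0.11. The catalytic arm of complex I thus held differences of both signs, each with a 95% confidence interval that included 0.

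NDUFA2, an accessory subunit, had the largest positive difference of complex I. Its log2 values were 13.40, 13.38 and 13.22 on the RUNX1 arrays, against 13.30, 12.98 and 13.02 on the MCS arrays. The groups overlapped through RUNX1 replicate 3 and MCS replicate 1, and the difference was 0.23 ± 0.14 (SE, adjusted p = 1.00 from limma). NDUFV3, an accessory subunit of the flavoprotein part, had the largest negative difference of all members and the widest range over the arrays, 1.82. Its log2 values were 7.22, 7.10 and 5.95 on the RUNX1 arrays, against 7.77, 6.82 and 6.85 on the MCS arrays. RUNX1 replicate 3 lay lowest and MCS replicate 1 highest, and the difference was -0.39, with a 95% confidence interval of 0.40-fold to 1.46-fold. Without RUNX1 replicate 3 the difference of NDUFV3 was 0.01, and without MCS replicate 1 it was -0.08. NDUFB3 had the next widest range of complex I, 0.73, with a difference of 0.16.

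**Figure D3:**
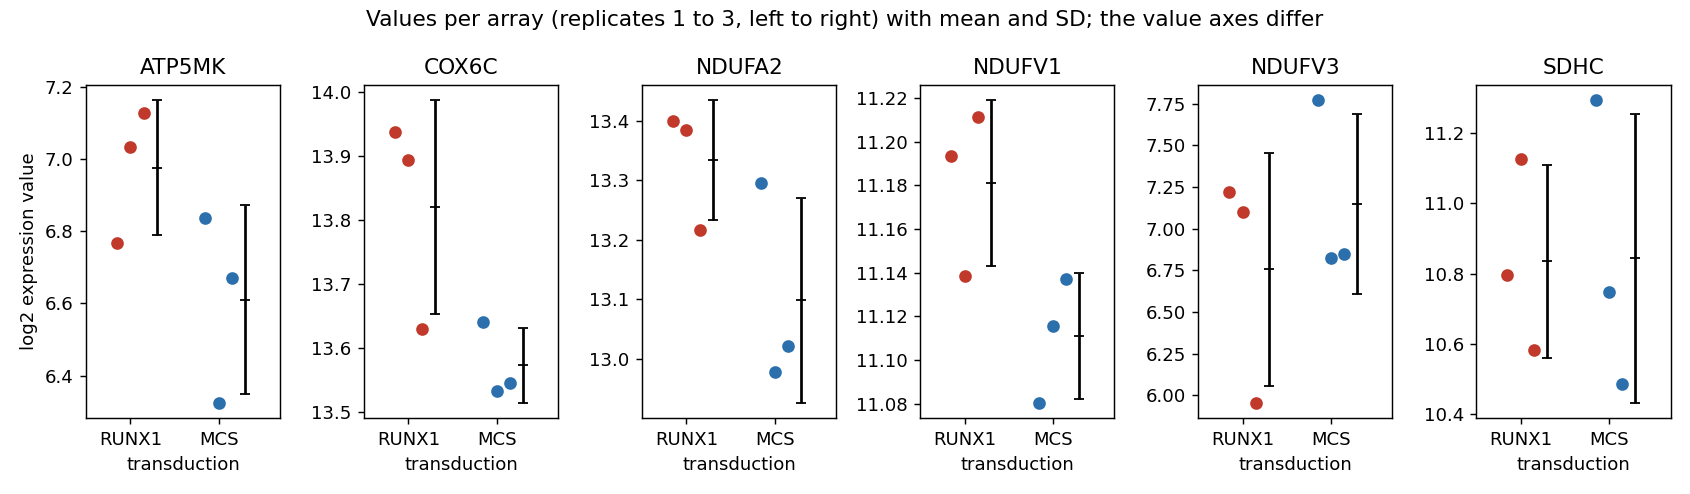
Log2 expression values of 6 members (vertical axes, which differ between panels) on the 3 RUNX1 arrays in red and the 3 MCS arrays in blue, replicates 1 to 3 from left to right, with the mean and SD of each group as a black bar (n = 3). The RUNX1 and MCS points overlap in each panel except that of NDUFV1, whose groups are 0.0014 apart.

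The plot of 6 members by array shows RUNX1 points above most MCS points for ATP5MK, COX6C and NDUFA2. For NDUFV3 and SDHC, RUNX1 replicates 1 and 2 and MCS replicate 1 lie above all other arrays, the split of the leading axis. Complex II, which also belongs to the citric acid cycle, had 3 tested genes and a median difference of -0.0087. SDHA had log2 values of 10.94, 11.03 and 10.69 on the RUNX1 arrays, against 11.02, 10.89 and 10.94 on the MCS arrays. SDHC, a membrane anchor, had 10.79, 11.13 and 10.58 on the RUNX1 arrays, against 11.30, 10.75 and 10.49 on the MCS arrays. SDHD, the other anchor, had 10.15, 10.06 and 9.79 on the RUNX1 arrays, against 10.03, 9.96 and 9.75 on the MCS arrays. In all 3 genes the groups overlapped, with differences of -0.06, -0.01 and 0.09 in that order. The range of SDHC over the 6 arrays, 0.81, was the widest of the complex. The median of the complex is the value of the brighter SDHC probe, and the other tested probe of SDHC had a difference of 0.13.

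Complex III, the cytochrome bc complex, had the smallest median range over the arrays of the 5 complexes, 0.25. Of its 9 tested genes 4 had a positive and 5 a negative difference, with a median of -0.0027. CYC1, the cytochrome that hands electrons on to cytochrome c, had log2 values of 12.89, 12.89 and 12.88 on the RUNX1 arrays, against 12.88, 12.89 and 12.96 on the MCS arrays. Its range over the 6 arrays, 0.081, was the narrowest of all members, and its 95% confidence interval ran from 0.82-fold to 1.18-fold. The core proteins UQCRC1 and UQCRC2 had differences of -0.01 and 0.08. UQCRQ had the largest positive difference, 0.13, UQCR10 the widest range, 0.44, and UQCR11 the largest negative difference, -0.07. UQCRH, the hinge protein, and its retrogene copy UQCRHL had differences of 0.02 and -0.04, and a signal of the probe of either may come from both, since they are near-identical.

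CYCS, the cytochrome c that carries electrons between complexes III and IV, had log2 values of 7.83, 7.75 and 8.07 on the RUNX1 arrays, against 7.64, 7.97 and 8.17 on the MCS arrays. The RUNX1 values lay inside the range of the MCS values, and the difference was -0.05 ± 0.18 (SE).

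Complex IV, cytochrome c oxidase, had 10 positive differences among 11 tested genes (90.9%, against 55.4% of all genes). Its median was 0.052, or -0.0062 after median scaling. COX6C, a small nuclear-encoded subunit, had log2 values of 13.94, 13.89 and 13.63 on the RUNX1 arrays, against 13.64, 13.53 and 13.55 on the MCS arrays. RUNX1 replicate 3 lay just below MCS replicate 1, and the difference was 0.25 ± 0.13 (SE, adjusted p = 1.00 from limma), with a 95% confidence interval of 0.95-fold to 1.48-fold. COX7B had the widest range of the complex, 0.49, and a difference of 0.07. COX4I1 had a difference of 0.03, COX5A of 0.06, COX5B of 0.01, COX6A1 of 0.05, COX6B1 of 0.04 and COX7A2 of 0.05. The value was 0.01 for COX7A2L, 0.11 for COX8A and -0.06 for COX7C, the 1 negative difference of the complex.

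Complex V, the ATP synthase, had 11 positive and 7 negative differences among 18 tested genes and a median of 0.025. ATP5MK, a small membrane subunit, had log2 values of 6.77, 7.03 and 7.13 on the RUNX1 arrays, against 6.84, 6.32 and 6.67 on the MCS arrays. RUNX1 replicate 1 lay below MCS replicate 1, and the difference was 0.37 ± 0.18 (SE, unadjusted p = 0.077 and adjusted p = 1.00 from limma), the largest positive value and the smallest p of all members. The 95% confidence interval ran from 0.96-fold to 1.72-fold. With the authors' processed values the difference of ATP5MK was 0.18. ATP5MF, subunit f, had a difference of 0.20.

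The catalytic head of complex V had differences near or below 0. ATP5F1B, the catalytic beta subunit, had log2 values of 14.87, 14.78 and 14.51 on the RUNX1 arrays, against 14.91, 14.67 and 14.69 on the MCS arrays. ATP5F1A, the alpha subunit, had 13.83, 13.69 and 13.42 on the RUNX1 arrays, against 13.81, 13.77 and 13.76 on the MCS arrays. In both genes RUNX1 replicate 3 was the lowest array and the groups overlapped, and the differences were -0.03 and -0.14. In the central stalk, the gamma subunit ATP5F1C had a difference of -0.02, the epsilon subunit ATP5F1E of -0.12 and the delta subunit ATP5F1D of -0.16, the largest negative value of the complex. The oligomycin sensitivity protein ATP5PO of the peripheral stalk had a difference of 0.0010. The 3 genes for the identical subunit c of the rotor, ATP5MC1, ATP5MC2 and ATP5MC3, had differences of 0.05, 0.02 and 0.06. ATP5IF1, the inhibitor of ATP hydrolysis, had log2 values of 11.78, 12.01 and 11.46 on the RUNX1 arrays, against 11.89, 11.53 and 11.61 on the MCS arrays, with a difference of 0.07.

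The 8 assembly factors of complex I among the members had the highest median, 0.12, and none passed the test. NDUFAF4 had log2 values of 9.97, 9.93 and 9.87 on the RUNX1 arrays, against 9.88, 9.65 and 9.74 on the MCS arrays, with a difference of 0.17. RUNX1 replicate 3 lay just below MCS replicate 1, so that the groups overlapped. The pseudogene copies UQCRBP1 and ATP5F1EP2 had differences of -0.20 and 0.05, and their probes may share signal with the parent genes UQCRB and ATP5F1E.

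The 5 complexes were then set side by side. For each array the deviation of each gene from its mean over the 6 arrays was taken, and the median over a complex is given. In complex I this median was -0.0034, 0.089 and 0.0057 on the RUNX1 arrays, against 0.085, -0.073 and -0.10 on the MCS arrays. In complex V it was 0.033, 0.067 and -0.10 on the RUNX1 arrays, against 0.15, -0.036 and -0.11 on the MCS arrays. In both complexes MCS replicate 1 was high and MCS replicate 3 was lowest, and the groups overlapped.

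The group means of these medians differed by 0.061 in complex I, where the SD was 0.051 on the RUNX1 arrays and 0.10 on the MCS arrays (n = 3 each). In complex II the difference was 0.015, with an SD of 0.18 on the RUNX1 arrays and 0.16 on the MCS arrays. In complex III it was -0.014, with an SD of 0.020 on the RUNX1 arrays and 0.069 on the MCS arrays. In complex I the difference was thus larger than the spread of the RUNX1 arrays but smaller than that of the MCS arrays. It was smaller than the spread of either group in complexes II and III. In complex IV it was 0.058, with an SD of 0.061 on the RUNX1 arrays and 0.064 on the MCS arrays. In complex V it was -0.0022, with an SD of 0.088 on the RUNX1 arrays and 0.14 on the MCS arrays. In complexes II and V the sign is opposite to that of the median of the gene differences, -0.0087 and 0.025. The direction in these complexes thus depends on the measure.

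Over the 10 pairs of complexes, the gap between their medians differed most for complexes I and III. Complex I minus complex III was 0.031 ± 0.061 on the RUNX1 arrays and -0.044 ± 0.033 on the MCS arrays (SD, n = 3 each), a difference of 0.075. For this pair the groups overlapped. Complex III minus complex IV was -0.026 ± 0.062 on the RUNX1 arrays and 0.045 ± 0.018 on the MCS arrays, a difference of -0.072. There each RUNX1 array lay below each MCS array. Both pairs were chosen after their values were seen, and neither was tested.

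**Figure D4:**
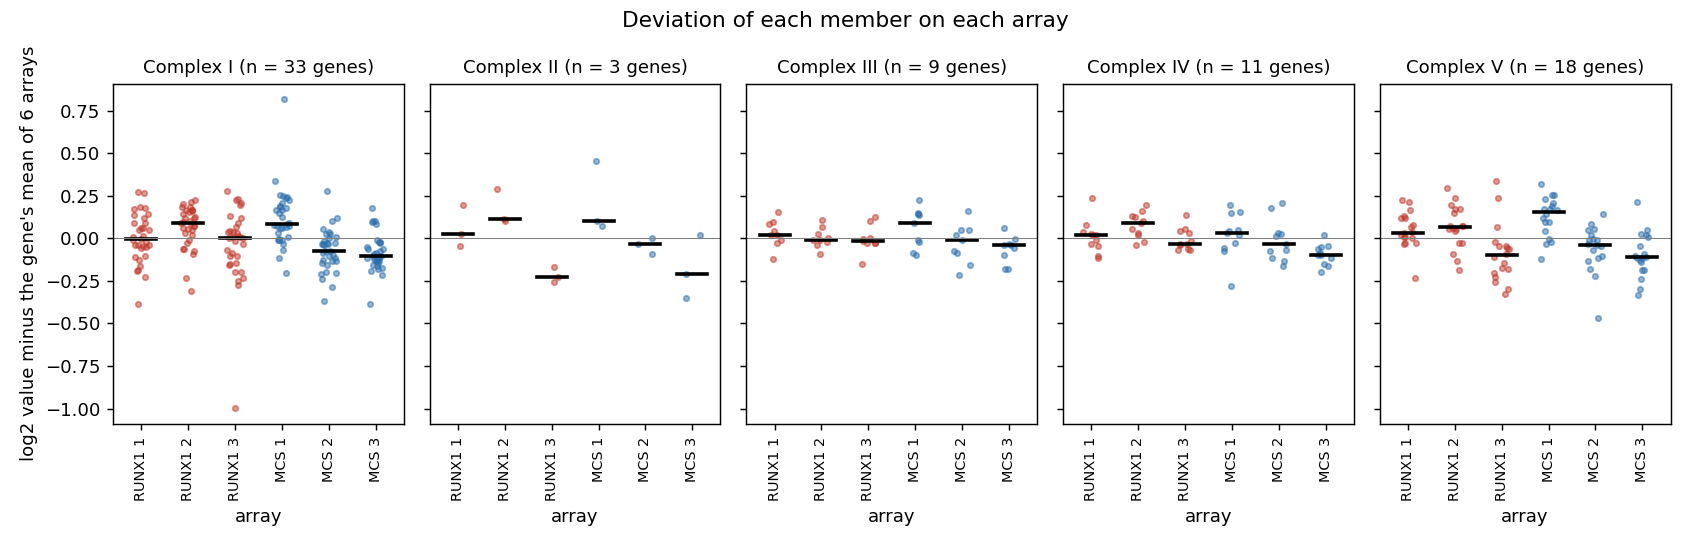
Deviation of each tested gene from its own mean over the 6 arrays (vertical axis, log2) on each array, in 1 panel for each of complexes I to V, with the 3 RUNX1 arrays in red, the 3 MCS arrays in blue and the median as a black line. MCS replicate 1 lies high and MCS replicate 3 lowest in complexes I and V, and the 3 RUNX1 medians of complex V lie between them.

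The plot of deviations by array shows the MCS arrays spread on both sides of 0. MCS replicate 1 was the highest array for 31 of 85 members (36.5%, against 20.7% of all genes) and MCS replicate 3 the lowest for 26 (30.6%, against 20.6%). The median deviation of the members was 0.018, 0.073 and -0.024 on the RUNX1 arrays, against 0.090, -0.040 and -0.096 on the MCS arrays. Over all genes it was 0.029, 0.031 and -0.023 on the RUNX1 arrays, against 0.022, -0.013 and -0.029 on the MCS arrays. The members thus moved further than all genes on MCS replicates 1 and 3. In both sets the median was above 0 on RUNX1 replicates 1 and 2 and MCS replicate 1. It was below 0 on the other arrays, the same split as on the leading axis. Without MCS replicate 1 the members' median difference was 0.096, and without MCS replicate 3 it was -0.0073.

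Different probes of 1 gene were also compared. The probes were not placed against transcripts, so measurement error and a difference between transcripts cannot be told apart. Of 24 members with several tested probes, 13 had the same sign on every probe and 11 had opposite signs, and in 11 the probes differed by under 0.1. The widest gap was 0.84 in NDUFV3, whose dimmer probe, detected on 5 arrays, had a difference of 0.45 where the brighter had -0.39. That dimmer probe had log2 values of 5.45, 5.72 and 6.61 on the RUNX1 arrays, against 5.67, 5.73 and 5.04 on the MCS arrays. RUNX1 replicate 3, the lowest array by the brighter probe, was the highest by the dimmer one. The next gaps were 0.33 in ATP5F1D (-0.16 and 0.17), 0.29 in NDUFAF7 (-0.02 to 0.27) and 0.22 in ATP5MC2 (-0.13 to 0.08). Both probes of ATP5MF gave 0.20, and the 3 of UQCR10 gave 0.11 to 0.12.

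Genes that build, regulate or serve the chain were also counted from 4 lists, and 0 of them passed the adjusted threshold. Assembly factors outside the NDUF family had 44 tested genes, of 46 listed, with a median difference of 0.043. Genes for the expression and copying of mitochondrial DNA had 24 of 26 and a median of 0.0085, and TFAM, which packages mitochondrial DNA, had a difference of -0.01. Transcription factors and coactivators of nuclear respiratory genes had 17 of 21 and a median of 0.0040, with differences of 0.12 for GABPA and -0.19 for PPARGC1A. Carriers, channels and uncoupling proteins had 9 of 17 and a median of -0.035. The median over all genes was 0.021.

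Of the 94 list genes tested, 1 had an unadjusted p under 0.05, against 2.26% of all genes, and the groups did not overlap for 5, against 6.56%, so that neither count was above the share over all genes. The genes named here were chosen after their values were seen. UCP2, an uncoupling protein family member of the inner membrane, had log2 values of 5.98, 5.69 and 5.97 on the RUNX1 arrays, against 6.29, 6.53 and 6.38 on the MCS arrays. Every RUNX1 array lay below every MCS array, with a difference of -0.52 ± 0.14 (SE, unadjusted p = 0.0078 and adjusted p = 1.00 from limma). The UCP2 signal was dim, since the NDUFA5 probe, detected on no array, had a log2 value of 5.24 on MCS replicate 1. SLC25A4, the adenine nucleotide carrier of muscle and heart, had 11.13, 11.16 and 10.99 on the RUNX1 arrays, against 11.32, 11.32 and 11.18 on the MCS arrays. The groups of SLC25A4 did not overlap, and its difference was -0.18 (adjusted p = 1.00 from limma). The remaining 3 were MYC, a transcription factor of cell growth, with -0.32, TFB1M, which modifies mitochondrial ribosomal RNA, with -0.21, and ATPAF2, an assembly factor of the ATP synthase, with 0.18.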

How the data were processed

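Total RNA of 3 RUNX1 and 3 MCS samples was amplified and hybridized by the authors, and the arrays were grouped by the transduction in their names. The authors deposited the intensity of each probe on a linear scale, summarised with BeadStudio and not corrected for background, and a detection p-value beside it. They also deposited log2 values made with lumi, whose version, transformation and background step are not given in the sources used here. These columns have a median of 7.19 on each array, and no chip position is given there.

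Background was estimated from the detection p-values and values were quantile-normalized with neqc (limma 3.58.1, R 4.3.3), with an offset of 16. Gene names came from the platform annotation, where 30113 probes have 1 symbol, 8 several and 17110 none. A gene needed a detection p under 0.05 on at least 3 arrays, and its brightest probe was fitted by lmFit and eBayes with no covariate, with adjustment by Benjamini-Hochberg over all 11129 genes (18867 probes in the fit of all probes). The number of arrays limits the precision, and no 2 arrays held identical values. Fits were tested on simulated data. The text names the catalytic and core members, isoforms and inhibitors, and in each complex the members with the largest difference in each direction and the 2 widest ranges, with the 4 widest gaps between probes and the members detected on no array. The members, the 4 pathway lists and the marker lists (HEK-293T, blood, muscle) were chosen with earlier results of these data known. Alternatives were other background, scaling, filter and probe rules, the log2 values that the authors deposited, array weights, the methods' t-test, a trend in eBayes, a block for the replicate number, and each array left out.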

Additional observations from a re-analysis of the deposited data

How the results depend on the processing

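The 18 alternatives left the counts of genes and members past an adjusted p under 0.05 from limma at 0, except for array weights (897 and 2), and the methods' t-test also gave 0 after Benjamini-Hochberg. At an unadjusted p under 0.05, 251 genes passed in the fit reported, 360 by the methods' t-test and 136 to 847 with 1 array left out. The median difference of complex III was -0.0027 as reported, -0.087 after median scaling, and -0.024 (without MCS replicate 3) to 0.054 (without MCS replicate 1) with 1 array left out, and the cause was not tested. With 1 array left out, the medians ran from -0.0073 to 0.099 in complex I, -0.13 to 0.15 in complex II, -0.00096 to 0.072 in complex IV and -0.037 to 0.094 in complex V. The members whose 95% interval lay within 1.5-fold came to 66 to 83 over the alternatives, against 76, and to 87 of 95 with no filter on detection.

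With the replicate number as a block, 0 genes and 0 members passed, with a lowest adjusted p of 0.94 among the members and 523 genes at an unadjusted p under 0.05. The deviations of same-numbered arrays correlated at 0.57, -0.35 and 0.70. Arrays numbered 1 lay on the same side of the leading axis, as did those numbered 3, while those numbered 2 lay on opposite sides. Whether the numbers pair the samples therefore cannot be told from these values. The block moved no count of adjusted calls.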
